A study of Mus musculus with 18 samples.

Results

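Defensins are small cysteine-rich peptides that kill microbes by disrupting their membranes. In the mouse, α-defensins (the Defa genes, also called cryptdins) are made by Paneth cells at the base of the small intestinal crypts, and β-defensins (the Defb genes) are made by epithelia of the skin, airways and, for many members, the epididymis. H3K9me3, trimethylation of lysine 9 of histone H3, is a mark of heterochromatin that is written by enzymes such as SETDB1 and SUV39H1. The peak lists used here do not measure expression.

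The members were the genes of the deposited annotation with the name Defa or Defb followed only by digits. There were 64 of 35856 genes, 22 α-defensin and 42 β-defensin genes, and the name alone chose them. They fell into 5 clusters of genes on mouse genome build GRCm38 (mm10). A pair of β-defensin genes, Defb18 and Defb41, lay at chr1:18236473-18265138. A group of 11 β-defensin genes, Defb23 to Defb25, lay at chr2:152459055-152623053, and 5 more, Defb48 to Defb42, lay at chr14:62977524-63048606. The remaining 46 members were on chromosome 8. Of these, 14 β-defensin genes, Defb40 to Defb7, lay at chr8:18974940-19497775. The other 32, Defb33 to Defb13, lay at chr8:20892667-21948622 and comprised all 22 α-defensin genes between Defb33 and 9 further β-defensin genes, Defb1 to Defb13.

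The data were lists of H3K9me3 peaks from chromatin immunoprecipitation sequencing (ChIP-seq) with an Abcam antibody in E14TG2a mouse embryonic stem cells, the cell line of all samples. Wild-type cells, Uhrf1 KO cells and Dhx9 KO cells had 2 libraries each, so n = 2 per genotype throughout, and 12 further samples of the series had no peak list and were not analysed here. UHRF1 binds hemimethylated CpG and methylated H3K9 and brings the maintenance DNA methyltransferase DNMT1 to replicated DNA, and DHX9 is an RNA helicase. The methods describe Uhrf1 KO cells as clonal lines made with CRISPR-Cas9 in cells carrying a tetO-controlled eGFP reporter and a TetR-KRAB repressor, and how the Dhx9 KO cells were made is not given in the sources used here. No drug treatment or time was given for the 6 libraries, and the methods call the replicates biological, while the labels do not say whether they were separate cultures. The lists held 70195 to 125453 peaks per library and 6703081 to 20875020 ChIP reads inside peaks, both lowest in Uhrf1 KO library 1. In peaks with the same limits, background counts were identical in lists of wild-type and of Dhx9 KO cells but different in the Uhrf1 KO lists, so a fold over background is not comparable between them. Neither Uhrf1 nor Dhx9 had a peak in any library, so the targeted genes gave no check of the labels. Of 7 embryonic stem cell markers, Pou5f1, Sox2 and Zfp42 had no peak in any library, and 3 of 7 had one in both wild-type libraries.

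Each gene was given a window of its transcripts plus 5 kb on each side, 10.7 to 42.2 kb long for the defensins with a median of 12.4 kb. The quantities taken per library were whether any peak overlapped the window, and the share of the window's bases inside peaks, here called the covered share. A window without a peak had no signal past the authors' threshold, which is not the absence of H3K9me3.

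The sequences of α- and β-defensin sites to which the results refer are shown here, from RefSeq's GRCm38.p6, 5′ to 3′, with each CG dinucleotide in capitals, since CG is the site that UHRF1-dependent DNA methylation acts on. The first is the 250 bases before the starts of Defa21 (plus strand, chr8:21025295-21025544) and Defa22 (plus strand, chr8:21162027-21162276), which were identical base for base and held 1 CG.
Defa21 and Defa22: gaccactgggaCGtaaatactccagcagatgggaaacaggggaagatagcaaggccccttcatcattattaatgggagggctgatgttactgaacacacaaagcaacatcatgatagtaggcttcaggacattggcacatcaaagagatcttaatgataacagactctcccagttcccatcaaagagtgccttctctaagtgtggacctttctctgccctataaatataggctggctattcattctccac
Among the 12 α-defensin genes with a promoter in the RefSeq table, 4 of 66 pairs were identical over these 250 bases. The next is the peak upstream of Defa34 at chr8:21663001-21663200, shown on the plus strand, which was the one place near an α-defensin gene where all 6 libraries had a peak. It held no CG.
Defa34 peak: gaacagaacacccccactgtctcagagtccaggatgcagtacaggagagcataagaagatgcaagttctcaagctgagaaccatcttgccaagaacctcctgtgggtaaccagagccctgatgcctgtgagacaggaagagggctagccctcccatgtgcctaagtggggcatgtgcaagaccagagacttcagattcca
The last are the 250 bases before the starts of 3 β-defensin genes, all minus strand. Defb29 (chr2:152540042-152540291) and Defb9 (chr8:21885435-21885684) lay in regions of merged peaks that wild-type libraries shared and Uhrf1 KO libraries lacked. Defb15 (chr8:21932711-21932960) lay in a region of merged peaks with a peak in every library of the comparison. Such a peak need not reach the start of the gene. The start of Defb29 was inside a peak in wild type 2 but not in wild type 1. The start of Defb15 was inside a peak in each wild-type library and Uhrf1 KO library 1, but not in Uhrf1 KO library 2.
Defb29: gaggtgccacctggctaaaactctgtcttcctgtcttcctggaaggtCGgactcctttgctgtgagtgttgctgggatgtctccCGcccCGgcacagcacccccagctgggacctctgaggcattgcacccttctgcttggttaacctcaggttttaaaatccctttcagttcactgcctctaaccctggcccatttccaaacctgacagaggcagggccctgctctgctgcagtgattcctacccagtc
Defb9: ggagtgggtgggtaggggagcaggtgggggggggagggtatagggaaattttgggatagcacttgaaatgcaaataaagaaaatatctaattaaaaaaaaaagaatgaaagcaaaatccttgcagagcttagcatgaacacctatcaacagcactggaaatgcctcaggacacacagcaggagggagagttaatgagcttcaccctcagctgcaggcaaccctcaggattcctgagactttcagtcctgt
Defb15: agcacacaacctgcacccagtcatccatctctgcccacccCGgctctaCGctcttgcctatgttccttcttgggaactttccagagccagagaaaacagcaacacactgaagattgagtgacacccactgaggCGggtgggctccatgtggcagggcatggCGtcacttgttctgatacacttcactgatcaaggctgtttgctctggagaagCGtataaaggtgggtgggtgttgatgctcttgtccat
Defb29 held 3 CG, Defb9 held none and Defb15 held 5. CG was sparse in these promoters as a group: over the 42 promoters of 41 defensin genes in the table, the 250 bases held a median of 1 CG (range 0 to 8), against a median of 6 for the 32841 promoters of all genes, and 78.6% held at least 1 CG against 92.1% of all promoters. The families had the same median of 1 CG, with at least 1 CG in 100% of the 12 α-defensin and 70% of the 30 β-defensin promoters.

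In wild-type cells the β-defensin genes carried H3K9me3 peaks and most α-defensin genes did not. Peaks were called in each wild-type library at 36 of 64 defensin genes (56.2%), comprising 33 of 42 β-defensin genes and 3 of 22 α-defensin genes. The share was 59.7% over all genes and 75.1% over the 1767 other genes of chromosome 8. Defensin windows were shorter than those of other genes, and with 5 kb on each side of a start for every gene the shares were 53.1% of defensin genes, 42.4% of all genes and 58.0% of other chromosome 8 genes, so the order of defensins and all genes turned. In those equal windows the β-defensin genes were at 73.8% and the α-defensin genes at 13.6%. The mean covered share of the β-defensin genes was 33.1% in wild type 1 and 32.3% in wild type 2, a mean of 32.7% ± 0.593 (SD, n = 2). For the α-defensin genes it was 2.14% and 3.41%, a mean of 2.78% ± 0.899 (SD, n = 2), against 33.5% ± 0.403 (SD, n = 2) for the other genes of chromosome 8. The wild-type library means of the α-defensin genes and of the other genes of their chromosome did not overlap, but single genes did. Defa29 had 28.7% in both wild-type libraries, and 267 of the other chromosome 8 genes had no peak in either. Across all 6 libraries, 13 members had no peak in any library, 12 of them α-defensin genes and the other Defb18. A further 18 members had a peak in every library, 17 of them β-defensin genes and the other Defa34. The shares of all genes in these 2 classes are not given here. In wild type alone, 17 of 64 defensin genes had no peak in either library. The same held for 10791 of all 35856 genes and 267 of the 1767 other genes of chromosome 8, whose windows are mostly longer.

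**Figure D1:**
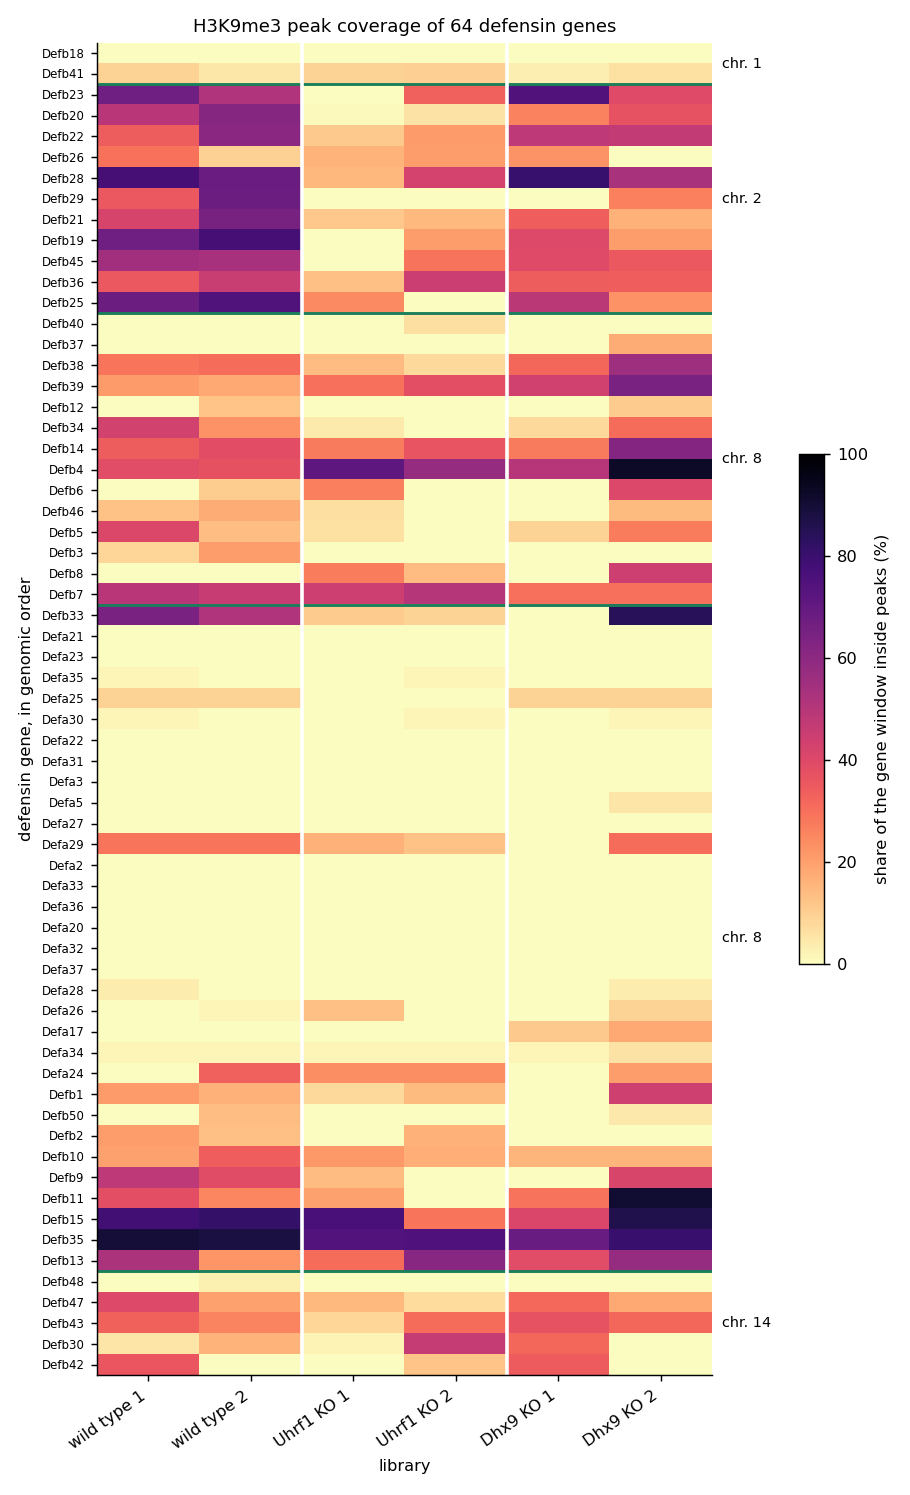
Covered share (colour, percent of the gene window inside H3K9me3 peaks) of the 64 defensin genes (rows, in genomic order, with lines between clusters) in each of the 6 libraries (columns). Most chromosome 2 genes are dark in the wild-type columns, the block of α-defensin genes on chromosome 8 is pale apart from Defa29 and Defa24, and 13 rows are at 0 throughout.

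The α-defensin block differed from the β-defensin clusters in how much of its sequence is unique in the genome. Every stretch of 150 bases, the read length in the study's methods, was looked up at steps of 10 bases in the reference chromosomes and unplaced scaffolds on both strands. A median of 45.3% of the stretches in an α-defensin window occurred once in the genome (range 28.0 to 94.3%), against 99.9% in a β-defensin window (range 79.6 to 100%). Over the other genes of chromosome 8 the unique share of all sampled stretches was 97.5%, and over all other genes 96.2%. Within the α-defensin genes, 13 windows were under 50% unique, and of these 11 had no peak in any library and 0 had one in both wild-type libraries. Of the 9 windows at 50% or more, 8 had a peak in at least 1 library and 3 in both wild-type libraries, but their mean covered share, 4.83% in wild type 1 and 8.34% in wild type 2, was still below that of the β-defensin genes. Defa27, an α-defensin gene, was 87.5% unique and had no peak in any library. Reads from non-unique stretches cannot be assigned to one copy, whether the authors kept them is not given in the sources used here, and the part of this in the low α-defensin coverage was not tested. The reference is also of another mouse strain than these cells, and α-defensin copy number differs among strains.

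**Figure D2:**
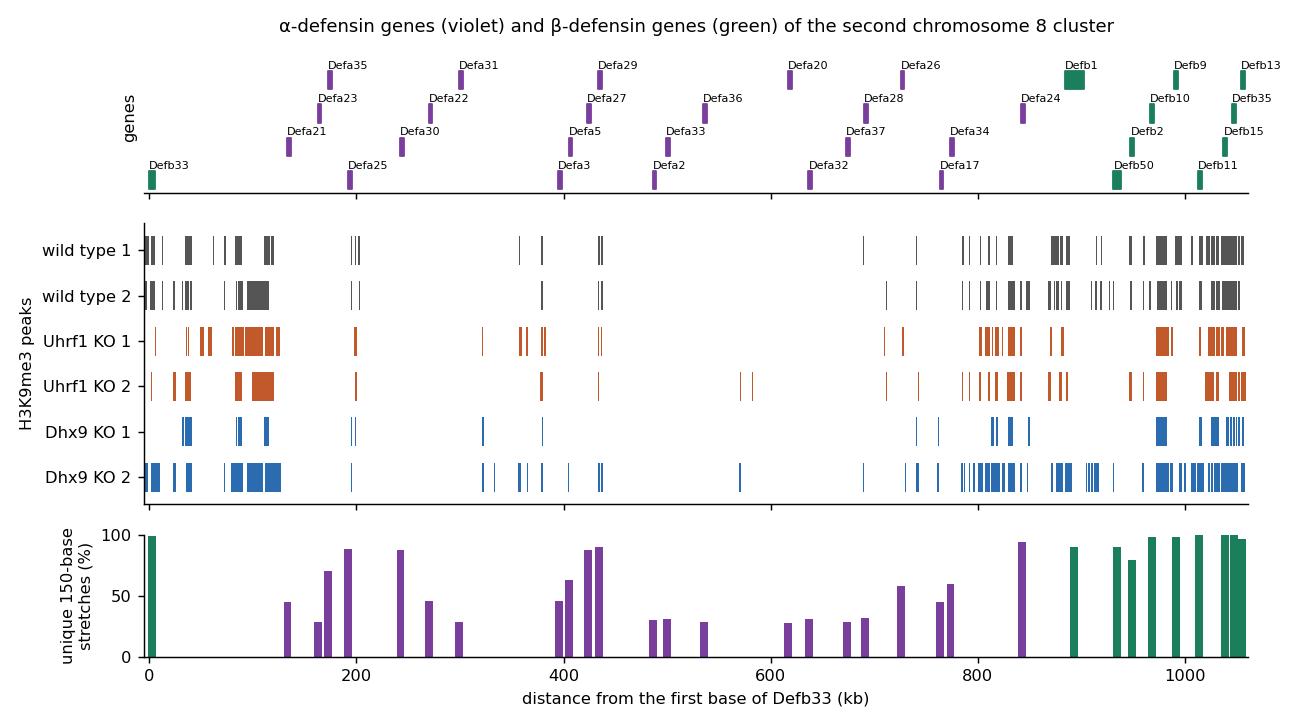
Map of the chromosome 8 cluster from Defb33 to Defb13: genes (violet α, green β, drawn at a minimum width), H3K9me3 peaks of each library (bars), and the share of 150-base stretches in each gene window that occur once in the genome (percent), against distance from the first base of Defb33 (kb). Peaks are few from Defa21 to Defa17, the stretch that holds the 13 α-defensin windows under 50% unique, and dense around Defb15 and Defb35.

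Several peaks called among α-defensin genes were 200 bases long, the bin length of the peak caller. At Defa34 the peak printed above was 200 bases long and 100% unique, with its centre 2.70 kb before the start of the gene, and held 29 and 36 ChIP reads in the wild-type libraries. It held 16 and 45 in the Uhrf1 KO libraries, 35 in Dhx9 KO library 1 and, in a longer peak of 600 bases, 65 in Dhx9 KO library 2. Defa35 and Defa30 each had a peak of 200 bases over the start of the gene. The Defa35 peak was called in wild type 1 with 42 ChIP reads and 3 background reads and in Uhrf1 KO library 2 with 36 and 12. The Defa30 peak was called in wild type 1, Uhrf1 KO library 2 and Dhx9 KO library 2 with 31, 35 and 35 ChIP reads. Both were in unique sequence, and neither was called in both libraries of a genotype. Defa29, next to Defa27 and the α-defensin gene with the highest wild-type coverage, had covered shares of 28.7% in both wild-type libraries, 16.2% and 12.6% in Uhrf1 KO, and 0% and 30.5% in Dhx9 KO. Both Uhrf1 KO values were below the wild-type values, while the Dhx9 KO values lay on either side.

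Among the β-defensin clusters, the chromosome 2 cluster had the highest coverage in wild-type cells. Many β-defensins of this cluster are products of the epididymis. All 11 of its genes had a peak in both wild-type libraries, and their mean covered share was 50.9% and 57.8%, a mean of 54.3% ± 4.87 (SD, n = 2), against 18.4% ± 0.558 (SD, n = 2) for the 2887 other genes of chromosome 2. The 24 β-defensin genes of chromosome 8 had a mean of 28.4% ± 1.66 (SD, n = 2), and the 5 genes of chromosome 14 had 17.8% ± 7.14 (SD, n = 2). Members differed widely inside each cluster. On chromosome 2, Defb45 had the most wild-type ChIP reads in overlapping peaks (mean 643) and Defb29 the fewest (mean 192.5). Defb45 had covered shares of 54.9% and 53.3% in wild type, 0% and 29.2% in Uhrf1 KO and 39.8% and 35.2% in Dhx9 KO, lower in every knockout library. On chromosome 8, the β-defensin genes Defb35 and Defb15 had the highest covered shares, 89.8% and 88.2% for Defb35 and 78.3% and 81.4% for Defb15 in the wild-type libraries, whereas Defb40, the first gene of the cluster Defb40 to Defb7, had its only peak in Uhrf1 KO library 2 (6.53%). Defb14, a ligand of the receptor CCR6, led that cluster in ChIP reads, with covered shares of 34.3% and 38.5% in wild type, 27.4% and 36.4% in Uhrf1 KO and 27.4% and 62.0% in Dhx9 KO, on either side of wild type. The Uhrf1 KO range overlapped that of wild type at Defb14. Defb10 had the most ChIP reads of any member (mean 1687) although 19.2% and 33.6% of its window was covered, since its window reached into one dense region, described further on. Its covered share was 21.4% and 16.9% in Uhrf1 KO and 15.3% in both Dhx9 KO libraries. In the same cluster Defa21 was the first in genomic order of the 12 α-defensin genes with no peak in any library. On chromosome 14, Defb43 led with 33.1% and 25.7% in wild type, 8.58% and 30.8% in Uhrf1 KO and 37.0% and 31.9% in Dhx9 KO, and Defb48 had its only peak in wild type 2 (2.81%). On chromosome 1, Defb41, an epididymal β-defensin, had 9.20% and 5.06% in wild type, 9.20% and 10.0% in Uhrf1 KO and 3.31% and 5.89% in Dhx9 KO, and Defb18 had no peak. Neighbouring genes carried peaks too: of the 10 genes nearest to the 5 clusters, 8 had a peak in both wild-type libraries. The share was 59.7% over all genes and 75.1% over other chromosome 8 genes. Some windows of these neighbours overlap windows of members, so a peak can count for both. Rem1, a small GTPase gene beside the chromosome 2 cluster, had covered shares of 89.1% and 83.5% in wild type, 14.3% and 31.9% in Uhrf1 KO and 81.4% and 70.4% in Dhx9 KO. On its other side, Gm39960 had 30.2% and 59.9% in wild type, no peak in Uhrf1 KO and 33.5% and 18.6% in Dhx9 KO. The cluster Defb40 to Defb7 lay between Gm40464, with a peak in wild type 2 and not in wild type 1, and Gm35998, with 83.1% and 70.6%. The cluster Defb33 to Defb13 lay between Gm21944, with 73.0% and 59.8%, and Fam90a1a, with 59.0% and 65.4%. On chromosome 14, Wdfy2 had 6.43% and 4.33% and 2700070H01Rik had 55.1% and 45.9%, and on chromosome 1 Defb44-ps, a defensin pseudogene, had 15.3% and 16.2% and Gm15825 had 9.93% and 0%. In these neighbours as in the members, coverage ranged from 0% to over most of the window.

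**Figure D3:**
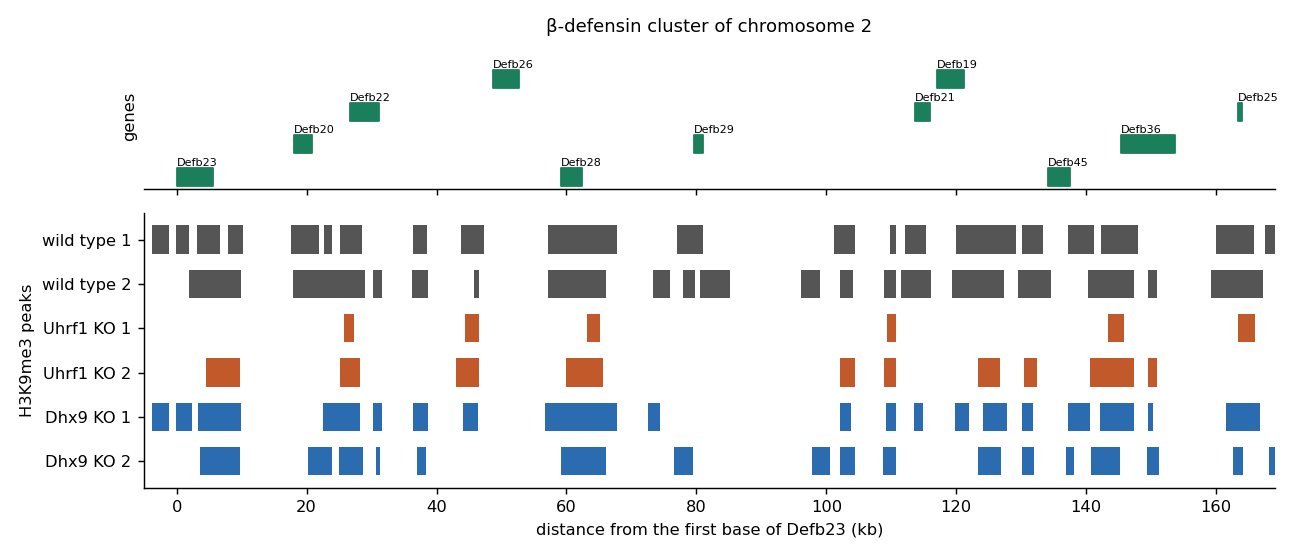
Map of the chromosome 2 cluster: the 11 β-defensin genes (green) and the H3K9me3 peaks of each library (bars), against distance from the first base of Defb23 (kb). Wild-type peaks run through the whole cluster, and peaks are fewer and shorter in both Uhrf1 KO libraries, with Uhrf1 KO library 1 covering least.

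The comparison of Uhrf1 KO with wild-type cells asks whether H3K9me3 at these genes depends on a protein of DNA methylation maintenance. A smaller part of the defensin windows lay inside peaks in Uhrf1 KO cells, and other genes fell too, from a mean of 19.2% to 9.54% over all genes and from 33.5% to 17.0% over the other genes of chromosome 8. The mean covered share of all 64 genes was 22.5% and 22.4% in wild type against 10.8% and 12.7% in Uhrf1 KO. The number of defensin genes with a peak in both libraries was 36 in wild type (56.2%) and 25 in Uhrf1 KO (39.1%). Over all genes these shares were 59.7% and 37.7%, and over other genes of chromosome 8 they were 75.1% and 50.3%. A gene was called lost where a peak was present in wild type 1 and 2 and absent from the pair of knockout libraries, and gained in the reverse case. By this rule 3 defensin genes were lost (Defa25, Defb29 and Defb3) and 0 were gained, against 10.5% of all genes lost and 0.837% gained. The 3 lost members are 4.69% of the 64, and of the 36 with a peak in each wild-type library they are 8.33%, against 17.6% over all genes and 19.4% over other genes of chromosome 8. With 2 libraries against 2, an exact permutation test of one gene's covered share could not give a two-sided p below 0.333, so single genes were not tested.

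Coverage was compared gene by gene in the same way. The covered share was lower in both Uhrf1 KO libraries than in either wild-type library at 23 of 64 defensin genes (35.9%), where 34.6% of all genes behaved so, and higher in both at 3 of 64 (4.69%), where 5.6% did. Over the whole genome both shares are near the background, but they pool unlike chromosomes. On chromosome 8 the covered share was lower at 28.3% of defensin genes and at 49.4% of other genes, and higher at 6.52% and 3.57%. Off chromosome 8 it was lower at 10 of 18 defensin genes (55.6%) and higher at 0. Of these 10, 9 were in the chromosome 2 cluster, where windows overlap. Among other genes of chromosomes 1, 2 and 14 it was lower at 32.7%, 38.2% and 32.1%, and higher at 7.65%, 4.78% and 6.17%. Most α-defensin genes had no wild-type peak and could not be lower. The 3 higher members were all on chromosome 8 in the cluster Defb40 to Defb7. Among them Defb4, a β-defensin of airway and upper digestive epithelia, had 38.9% and 37.4% in wild type against 71.2% and 57.6% in Uhrf1 KO. Defb39 had 20.9% and 18.2% against 29.9% and 38.2%. Defb8 had 0% and 0.270% against 27.3% and 13.8%, without overlap between the genotypes.

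The chromosome 2 cluster had the largest fall in covered share of the 5 clusters. Its mean covered share was 8.35% and 21.1% in Uhrf1 KO, against 50.9% and 57.8% in wild type, and 9 of its 11 genes were below both wild-type values in both knockout libraries (81.8%), where 38.2% of the other genes of chromosome 2 were. Those other genes fell in mean as well, from a mean of 18.4% to 7.30% ± 4.48 (SD, n = 2). Windows of neighbouring genes overlap in this cluster, so a peak can count for several genes and its genes are not independent units. Defb29, a β-defensin of this cluster, had 35.3% and 67.9% in wild type and no peak in Uhrf1 KO. Defb25, at the end of the cluster, had 67.8% and 74.8% in wild type against 24.3% and 0% in Uhrf1 KO. Defb36 was one of the 2 exceptions, with 35.2% and 45.6% in wild type against 13.0% and 44.6% in Uhrf1 KO. Defb26 was the other, with 29.6% and 9.56% against 15.7% and 20.3%.

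The direction of these differences depended on how peaks were selected. Peaks at an FDR at or below 1e-10 kept it, with mean covered shares of 11.9% in wild type and 6.60% in Uhrf1 KO. Peaks whose log2 fold reached 1 gave 6.34% and 6.80%, with 14 genes having a peak in each wild-type library and 17 in each Uhrf1 KO library. When each library kept the same number of peaks, those with the highest log2 fold over background, the defensin mean was 7.62% ± 1.01 in wild type and 9.52% ± 1.85 in Uhrf1 KO (SD, n = 2), and 17 and 20 genes had a peak in each library. Both of the last selections rest on the fold over background, and background counts differed between these lists. Peak calling, and so the FDR of a peak, used a background as well. Under both selections by fold, the direction turned for the defensin genes. Over all genes Uhrf1 KO stayed lower: 5.50% against 7.11% in wild type by log2 fold, 7.08% against 8.39% with equal peak numbers. Genes with a peak in each library then numbered 10265 against 12347 and 12314 against 13519. Over the other genes of chromosome 8 Uhrf1 KO was higher, at 5.93% against 5.33% and 10.8% against 6.95%. There 449 against 410 and 644 against 471 genes had a peak in each library. With equal peak numbers the β-defensin genes of chromosome 8 had 13.3% and 7.33% in wild type against 21.3% and 13.6% in Uhrf1 KO. The chromosome 2 cluster had 13.4% and 21.2% against 8.35% and 13.2%, a mean of 17.3% ± 5.53 against 10.8% ± 3.42 (SD, n = 2), and its lowest wild-type value was next to its highest Uhrf1 KO value. The other genes of chromosome 2 then had means of 7.40% and 5.12%. The part of peak selection, of read depth and of the differing background counts in the lower Uhrf1 KO coverage was not tested.

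**Figure D4:**
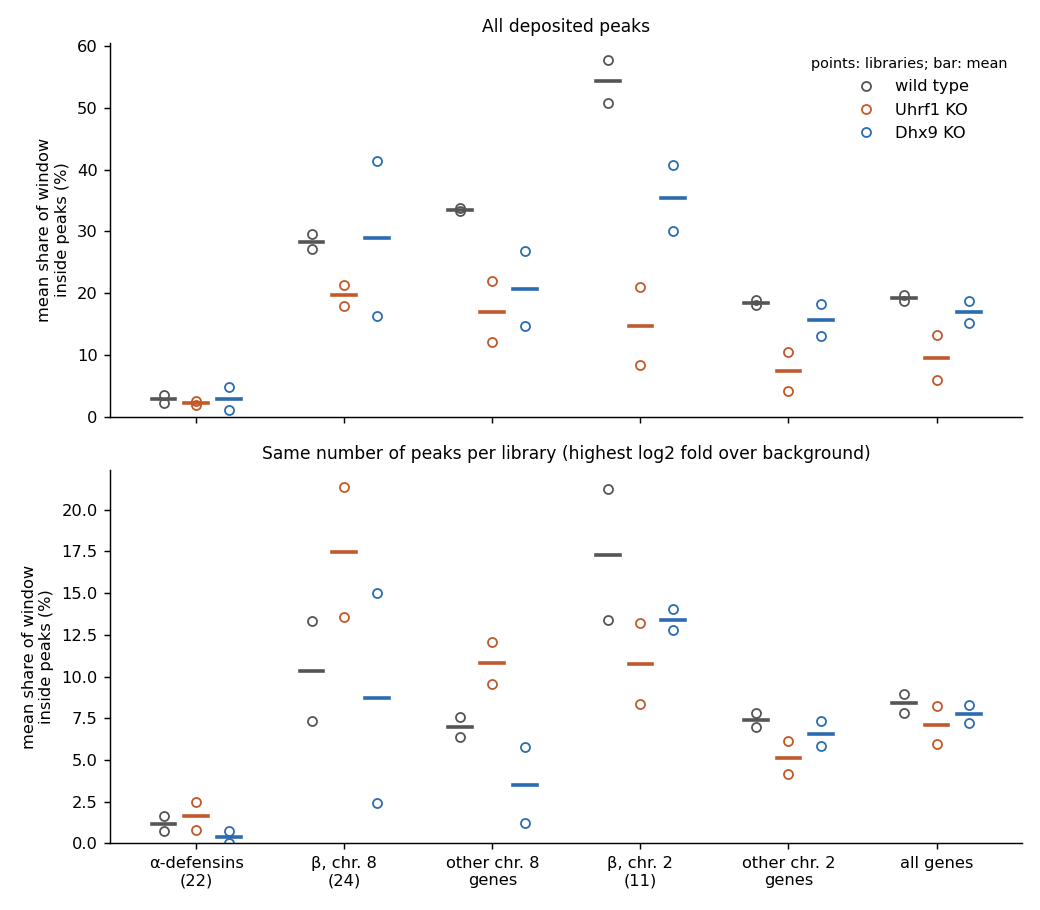
Mean covered share (percent of the gene window inside peaks, axes from 0) of α-defensin genes, β-defensin genes of chromosomes 8 and 2, the other genes of those chromosomes and all genes; open circles are the 2 libraries of a genotype and bars their mean. With all deposited peaks (top) Uhrf1 KO libraries lie below wild type in each β-defensin set, and with the same number of peaks per library (bottom) the chromosome 8 β-defensin mean is higher in Uhrf1 KO, 17.4% against 10.3%.

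Overlapping peaks were next merged into regions. In the Uhrf1 KO comparison there were 140413 regions, of which 84 touched a defensin window. Wild type 1 and 2 each had a peak in 53 of these, and 13 (24.5%) lacked one in Uhrf1 KO libraries 1 and 2, and over the genome the share was 24.2%. Over all regions, 13.7% were lost in this way and 3.0% were gained, and 0 of the defensin regions were gained. The lost regions were at Defb29, Defb21 and Defb19, Defb39 (2 regions), Defb34, Defb14, Defb46 and Defb5, Defb5 alone, Defb3, Defb33, Defa25, Defb9 and Defb47. They were weak in wild-type cells: the largest number of ChIP reads was 218, in wild type 1 at chr8:20887401-20892800 beside Defb33, with 178 background reads. The lost region at Defb9, chr8:21883401-21890000, covered the start of the gene and the CG-free sequence printed above. It held 210 ChIP reads in wild type 1 and 189 in wild type 2, with 203 and 151 background reads. Defa25 was lost through 1 region of 1000 bases, chr8:21087201-21088200, with 57 ChIP reads in wild type 1, 53 in wild type 2 and 40 background reads in each.

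Read counts could be compared only where every library of the comparison had peaks over 80% or more of a region, which leaves out every lost region. There were 2528 such regions, 4 of them at defensins. They were tested with edgeR's quasi-likelihood test with the called length as an offset, p-values being adjusted over all 2528 by the Benjamini-Hochberg method. Over the genome 161 regions had lower counts in Uhrf1 KO (6.37%) and 48 had higher counts (1.9%), a split that was 167 and 134 without the length offset and 82 and 291 without TMM scaling, which shifted the median log2 change of all regions from -0.05 to 0.17. None of the 4 defensin regions passed an adjusted p of 0.05 in edgeR, 1 had an unadjusted p below 0.05, and DESeq2 gave 0 by either measure, with no adjusted p at Defa34.

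Past the end of Defb15, and outside its transcript at chr8:21929813-21932710, lay the region nearest to the threshold. This region, chr8:21922201-21926000, was 33.9% repeat. ChIP reads there numbered 162 in wild type 1, 196 in wild type 2, 80 in Uhrf1 KO library 1 and 137 in library 2. Reads were scaled for called length and for the TMM-scaled total of reads in the 2528 tested regions. The density was 31.4 and 38.0 CPM per kb of called length in wild type against 28.4 and 20.9 in Uhrf1 KO, so the 2 genotypes did not overlap. The log2 change was -0.54 ± 0.20 (SE, n = 2 per genotype; adjusted p = 0.101 by edgeR). The log2 change was -0.33 with an adjusted p of 0.309 by edgeR when chromosome 8 regions were centred on their own median. It was -0.74 without Uhrf1 KO library 1, where the lone library is assumed to vary like the others, and -0.29 without library 2. The region over the Defb15 transcript and start, chr8:21927001-21942800, was not covered enough to be tested in this way. In the fit over all regions with a peak in every library its log2 change was 0.38 ± 0.19 (SE; adjusted p = 0.553 by edgeR). In that fit the region past the end of Defb15 had -0.37 ± 0.29 (SE; adjusted p = 0.707 by edgeR). At Defb14, in chr8:19171201-19173800, the density was 35.3 and 33.3 in wild type against 43.8 and 31.7 in Uhrf1 KO, and the log2 change was 0.10 ± 0.21 (SE). At the Defa34 peak it was 95.5 and 125.7 in wild type against 102.3 and 123.4 in Uhrf1 KO, with a log2 change of 0.07 ± 0.26 (SE). In both regions the genotypes overlapped, and at Defa34 the counts were only 16 to 45 reads.

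The dense region between Defb10 and Defb9, chr8:21864801-21877400, held the most ChIP reads of the tested defensin regions. Its wild-type densities in CPM per kb lay between those of the short Defa34 peak. It lay between the 2 genes and over no defensin transcript, was 82.6% repeat and 99.7% unique, and held 15.2 CG per kb against a median of 4.92 in the windows of chromosome 8 β-defensin genes. ChIP reads there numbered 1664 and 1524 in wild type, 799 and 2314 in the Uhrf1 KO libraries, and 783 and 1653 in the Dhx9 KO libraries. In the Uhrf1 KO comparison the density was 105.4 and 102.3 in wild type against 81.1 and 117.5 in Uhrf1 KO, with the wild-type values between the knockout values, and the log2 change was -0.06 ± 0.15 (SE; adjusted p = 0.844 by edgeR). Without Uhrf1 KO library 2 it was -0.36, and without library 1 it was 0.17.

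**Figure D5:**
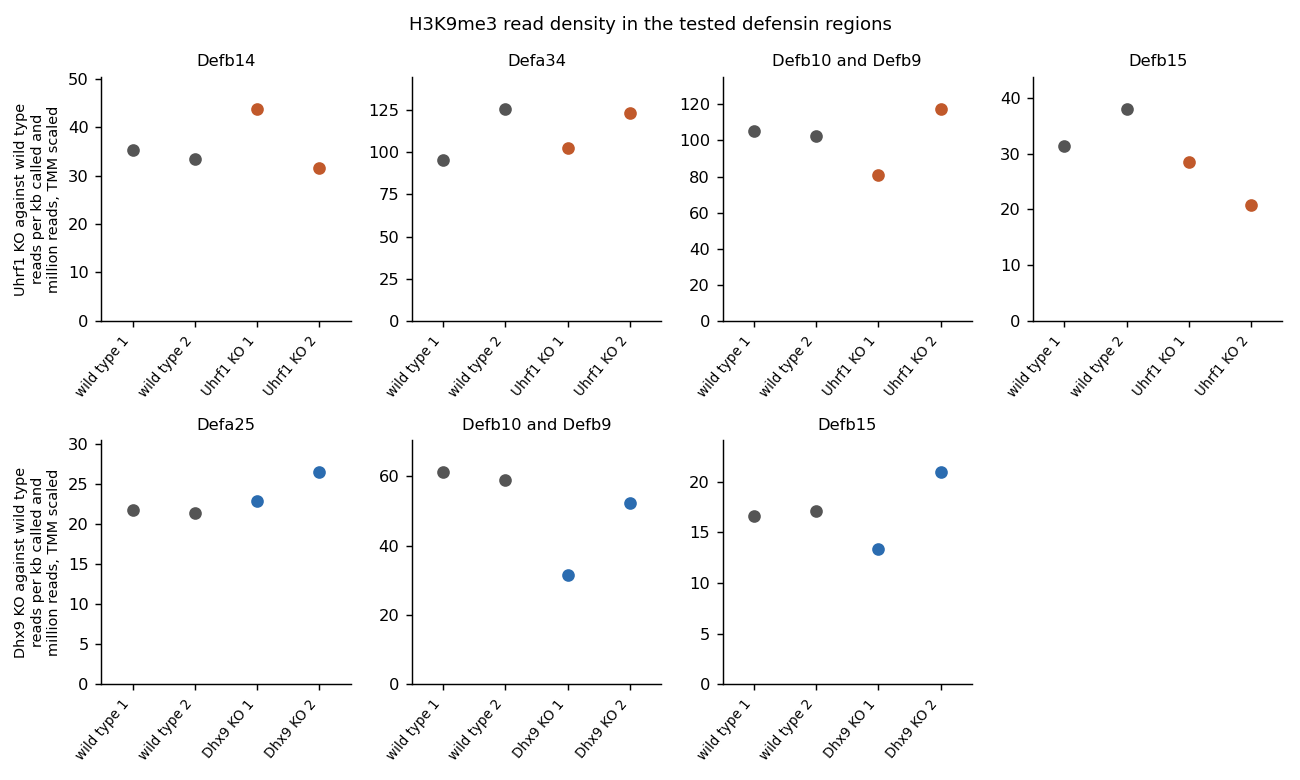
H3K9me3 ChIP reads as CPM per kb of called length, TMM scaled (axes from 0), in the 4 defensin regions tested in Uhrf1 KO against wild type (top) and the 3 tested in Dhx9 KO against wild type (bottom); each point is 1 library. At the region past the end of Defb15 both Uhrf1 KO points lie below both wild-type points. At Defb10 and Defb9 Dhx9 KO library 1 lies far below the other 3 libraries. CPM refer to reads in the regions tested in each comparison, so top and bottom are not on one scale.

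The comparison of Dhx9 KO with wild-type cells uses the same wild-type libraries as the Uhrf1 KO comparison. Here the 2 knockout libraries differed from each other more than their mean differed from wild type. The mean covered share of the 64 genes was 15.6% in Dhx9 KO library 1 and 23.2% in library 2, against 22.5% and 22.4% in wild type. The gap was on chromosome 8: the 24 β-defensin genes there had 16.4% in library 1 and 41.4% in library 2, with wild type at 29.5% and 27.2%, whereas the chromosome 2 cluster had 40.8% and 30.1%. Over all genes the order was the other way, 18.8% in library 1 and 15.1% in library 2. Defb11, a β-defensin of the second chromosome 8 cluster, had 28.9% in library 1 and 90.7% in library 2, with 38.0% and 25.3% in wild type. Defb33 had no peak in library 1 and 84.1% in library 2, and Defb4 had 49.8% and 92.2%.

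The chromosome as a whole differed between these libraries. In regions called in all 6 libraries over at least 50% of their length, 531 on chromosome 8 and 8475 on other autosomes, the ChIP reads per called base on chromosome 8 relative to other autosomes were 0.873 times the wild type 1 value in Dhx9 KO library 1, the lowest of the 19 autosomes, and 1.02 in library 2. The factor was 0.946 and 0.902 in the Uhrf1 KO libraries, also the lowest autosome in each, and 0.988 in wild type 2. Background reads could not tell whether Dhx9 KO cells had another copy number, since their lists used the wild-type background. In the background counts of the Uhrf1 KO lists the chromosome 8 factor was 0.979 and 0.994 of wild type. Which background library gave those counts is not stated, so they do not measure the copy number of Uhrf1 KO cells. The mean covered share of the other chromosome 8 genes was 14.7% in Dhx9 KO library 1 and 26.8% in library 2, so their libraries were ordered as the defensins were. The median log2 change of tested chromosome 8 regions outside defensin windows was -0.20 in Uhrf1 KO (206 regions), against -0.04 for other autosomes, and -0.11 in Dhx9 KO (242 regions), against 0.02.

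By the rule used above, 2 defensin genes were lost in Dhx9 KO (Defb2 and Defb3) and 1 was gained (Defa17), against 1.73% of all genes lost and 1.54% gained. On chromosome 8 alone, where all 3 lie, 6.68% of other genes were lost and 0.113% gained. Defb3, a β-defensin that is induced by bacterial infection, had 8.35% and 20.4% in wild type and no peak in any of the 4 knockout libraries. Defb2 had 20.7% and 13.3% in wild type, none in Dhx9 KO, and in Uhrf1 KO 0% and 16.2%. Defa17, an α-defensin gene, had no peak in wild-type or Uhrf1 KO libraries and 10.9% and 18.2% in Dhx9 KO, through peaks with 56 and 85 ChIP reads in sequence that was 40.3% and 56.1% unique. The covered share was lower in both Dhx9 KO libraries than in either wild-type library at 12 of 64 genes (18.8%), with 17.6% over all genes, and higher at 4 of 64 (6.25%), with 10.8% over all genes. The 4 higher genes, Defb38, Defb39, Defb4 and Defa17, were all on chromosome 8, where 8.70% of defensin genes and 0.962% of other genes were higher, and 10.9% and 39.0% were lower. These shares were not tested against each other. Of the 12 lower genes, 7 were among the 11 of the chromosome 2 cluster (63.6%), where 16.8% of the other genes of chromosome 2 were lower. Here too the windows overlap, so the genes of that cluster are not independent units. With the same number of peaks per library that cluster had a mean of 13.4% ± 0.894 in Dhx9 KO, against 17.3% ± 5.53 in wild type (SD, n = 2), and the values overlapped.

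Among merged regions of the Dhx9 KO comparison, 3 of the 51 defensin regions that wild type 1 and 2 shared were lost (5.88%, against 6.97% over the genome), at Defb3, Defb2 and Defb47, and 2 of 88 defensin regions were gained, at Defa17 and Defb47. Over all 155340 regions 3.52% were lost and 4.11% gained. Of the 4701 regions tested, 23 passed with a lower count in Dhx9 KO (0.489%) and 2 with a higher one (0.0425%), which became 12 and 3 without the length offset and 16 and 38 without TMM scaling. None of the 3 defensin regions passed an adjusted p of 0.05 in edgeR, 1 had an unadjusted p below 0.05, and DESeq2 gave 0 by either measure, with no adjusted p at Defa25.

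In the Dhx9 KO comparison CPM refer to reads in its 4701 tested regions, so densities are not on the scale of the Uhrf1 KO comparison. The region between Defb10 and Defb9 had a density of 61.2 and 59.1 in wild type and 31.4 and 52.3 in Dhx9 KO, so both knockout values were lower. The log2 change was -0.52 ± 0.18 (SE; adjusted p = 0.244 by edgeR). It rested mainly on Dhx9 KO library 1: the log2 change was -0.95 when library 2 was left out, and -0.21 when library 1 was left out. Centred on the chromosome 8 median, it was -0.41 with an adjusted p of 0.376. At Defa25 the density was 21.8 and 21.4 in wild type and 23.0 and 26.5 in Dhx9 KO, a log2 change of 0.20 ± 0.22 (SE; adjusted p = 0.797 by edgeR). In the region past the end of Defb15, chr8:21917601-21926000, it was 16.6 and 17.1 against 13.4 and 20.9, with a log2 change of 0.02 ± 0.19 (SE).

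Other genes of host defence were described by a list of 20 that holds Mmp7, the protease that activates α-defensins, Ccr6, a receptor of β-defensins, lysozymes, Reg3 lectins and the defensin-like Spag11a and Spag11b. Of these, 13 (65%, against 59.7% of all genes) had a peak in both wild-type libraries, 9 in both Uhrf1 KO and 13 in both Dhx9 KO libraries. In Uhrf1 KO 3 were lost (Camp, S100a8 and Spag11b), 15% of the list against 10.5% of all genes, and 0 gained against 0.837%. In Dhx9 KO 0 were lost and 0 gained, against 1.73% and 1.54% of all genes. Ccr6 had covered shares of 58.8% and 60.9% in wild type, 5.14% and 19.8% in Uhrf1 KO and 51.3% and 28.2% in Dhx9 KO. Mmp7 had no peak in wild type, 3.34% and 0% in Uhrf1 KO, and 25.8% and 0% in Dhx9 KO. Itln1, an intestinal lectin, had between 73.5% and 83.1% in all 6 libraries.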

How the data were processed

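The authors aligned 150-base reads to mm10 with Bowtie2 2.3.4.3, subsampled the alignments and ran epic2 0.0.51 on each library by itself, with duplicates kept. Each deposited peak list gave counts of ChIP and background reads, a log2 fold over background, a p-value with its FDR, and a score, the fold rescaled. The score was not used. The methods name the wild-type input as background, but background counts in the Uhrf1 KO lists differed from the others. The deposited annotation carries a 2762-base reporter on chromosome 2, which was subtracted from later positions.

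Peaks were intersected with gene windows of transcripts plus 5 kb. For the test, ChIP counts of peaks were summed per merged region (edgeR 4.0.16, TMM, filterByExpr, called length as offset; DESeq2 1.42.0 as an alternative). The SE was derived from the quasi-likelihood F statistic. The tests were first run on simulated data with known changes. Sequence values came from GRCm38.p6.

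Members and lists were chosen with earlier results of these data known. Named in full were the members with the most and the fewest wild-type ChIP reads per cluster, every lost or gained member, up to 3 tested regions per comparison and the gene on each side of a cluster; other members were named after their values were seen. Depth outside peaks is unknown, and p-values cover only the spread between these libraries.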

Additional observations from a re-analysis of the deposited data

How the results depend on the processing

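With only 2 libraries per genotype, and no value outside peaks, counts of genes moved with the peak threshold and the window. Genes with a peak in both libraries of wild type, Uhrf1 KO and Dhx9 KO numbered 21, 11 and 8 with peaks at an FDR at or below 1e-10. They numbered 14, 17 and 10 with a log2 fold of at least 1, and 17, 20 and 11 with equal peak numbers, so that Uhrf1 KO was then above wild type. Over all genes the counts were 12347, 10265 and 10339 by that log2 fold, and 13519, 12314 and 12377 with equal peak numbers. In Uhrf1 KO and Dhx9 KO the defensin counts were 12 and 16 without a flank and 47 and 46 with 20 kb. Leaving out 1 library of a genotype gave 40 to 43 in wild type, 33 in Uhrf1 KO and 30 to 43 in Dhx9 KO. The mean covered share was 11.9%, 6.60% and 8.59% at the strict FDR, 6.34%, 6.80% and 4.64% when the log2 fold had to reach 1, and 7.62%, 9.52% and 6.14% with equal peak numbers, in that order of genotypes. In wild type it was 24.5% without a flank, 22.6% with 20 kb and 23.7% around starts, and in Uhrf1 KO 13.7% with 20 kb. Without 1 library it was 22.4% to 22.5%, 10.8% to 12.7% and 15.6% to 23.2%.

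Genes lost in Uhrf1 KO numbered 0 when the log2 fold had to reach 1 and with 20 kb, 1 with equal peak numbers, 8 without a flank, 6 around starts, 7 with at least 1000 bases covered and 4 to 9 without 1 library (6, 9 and 7 without wild type 1, Uhrf1 KO 1 and Uhrf1 KO 2). Genes gained numbered 1, 2, 1 and 1 under that log2 fold, with equal peak numbers, around starts and with at least 1000 bases, and 0 to 2 without 1 library. In Dhx9 KO, lost genes numbered 0 at the strict FDR and with 20 kb, 1 with equal peak numbers and 3 to 8 without 1 library (4 and 8 without Dhx9 KO 1 and 2). Gained genes numbered 0 under the strict FDR, the log2 fold, equal peak numbers, no flank and 20 kb, and 1 to 3 without 1 library, 3 without Dhx9 KO 1.

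Regions past FDR 0.05 in Uhrf1 KO numbered 105 with DESeq2, 373 without TMM, 30 with all 6 libraries in one fit (901 regions), 0 by edgeR over all 40511 regions called in every library (2721 lower and 1180 higher at an unadjusted p under 0.05), and 1 to 547 without 1 library (1 without wild type 1, 3 without wild type 2, 547 and 396 without Uhrf1 KO 1 and 2). In Dhx9 KO they numbered 15 without the length offset, 54 without TMM, 0 by edgeR with all 6 libraries (91 lower and 43 higher unadjusted), 6 over all 58214 regions and 9 to 730 without 1 library (15, 9, 490 and 730 in the same order). Defensin regions past the threshold numbered 0 to 1 without 1 library in either comparison. The replicate numbers did not pair the libraries: deviations of same-numbered libraries correlated at 0.0642 and -0.0697. With the replicate number as a block, 80 regions passed in Dhx9 KO, and 1 defensin region did, Defb10 and Defb9 (-0.56, adjusted p = 0.0253 by edgeR); in Uhrf1 KO 192 passed and no defensin region. The median log2 change of chromosome 8 minus other autosomes was -0.068 over all regions in Uhrf1 KO, and without 1 library -0.21 to -0.11 there and -0.28 to 0.013 in Dhx9 KO, the last without Dhx9 KO library 1. The low-count filter removed 0 regions. The cause of these changes was not tested.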
